A study of Homo sapiens with 8 samples.

Results

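Selenoproteins carry selenocysteine, an amino acid that holds selenium where cysteine holds sulfur. The 10 genes described here encode human selenoproteins that are neither thioredoxin reductases nor glutathione peroxidases: SEPHS2, SELENOP, SELENOK, SELENOS, SELENOF, SELENOT, SELENOW, SELENOH, MSRB1 and DIO2. They were taken by symbol from the deposited gene table, where all 10 of 10 were found among 62700 rows, and they are 10 of the 25 selenoprotein genes counted in GENCODE 29 annotation. They were followed in macrophage foam cells given auranofin (AF), a gold compound known to inhibit the selenoenzyme thioredoxin reductase, against vehicle.

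The cells were THP-1, a human monocytic leukaemia line, differentiated to macrophages over 72 h in the phorbol ester PMA at 50 ng/mL and then given acetylated low-density lipoprotein (AcLDL) for 48 h, treatments that both groups share. The 4 AF libraries (FCs_AF) came from foam cells given 0.5 µM auranofin, and the 4 DMSO libraries (FCs_DMSO) from foam cells given DMSO at under 0.1%. The sample protocol gives the drug for 24 h ahead of the lipid and throughout it, whereas the series' design text puts it after loading. The model is a single tumour-derived line, and nothing in the labels says that libraries of a group came from separate cultures. Every library name shares its stem with that of another library, and the meaning of the stem is not stated. The independence of the 4 libraries of a group is therefore unknown, and a group may hold fewer than 4 independent units. The p-values set the difference between groups against the scatter of libraries within a group, and that scatter may be technical.

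A selenocysteine is written in the message as a TGA codon, which elsewhere ends translation. It is read as selenocysteine only with a hairpin in the untranslated end of the message (the SECIS element), a dedicated transfer RNA and its own elongation factor. When selenium is short, the messages of some selenoproteins are known from rodents to be destroyed by nonsense-mediated decay and others are spared. Macrophages use selenoproteins to handle peroxides, to repair oxidised methionine and to move calcium through the endoplasmic reticulum (ER).

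The codon that defines the family is shown here for each gene, with up to 12 coding bases before it and 15 after it. The sequences and codon positions were read from a single GENCODE 29 transcript per gene on GRCh38. The TGA is in capitals and each sequence runs 5′ to 3′ along the message.
SEPHS2, chr16:30445548-30445550, minus strand: ggcatgaagggcTGAggctgcaaggtcccg
SELENOP, the first of its 10, chr5:42808177-42808179, minus strand: cttcaagccagcTGAtacctgtgcatactg
SELENOK, chr3:53885831-53885833, minus strand: atggctggtggaTGAggaagg
SELENOS, chr15:101272777-101272779, minus strand: tcatctggcggaTGAggc
SELENOF, chr1:86880690-86880692, minus strand: gaagtttgtggaTGAaaattgggaaggttc
SELENOT, chr3:150622392-150622394, plus strand: atttgtgtttccTGAggttataggcgggtg
SELENOW, chr19:47780732-47780734, plus strand: tattgtggcgctTGAggctacaagtccaag
SELENOH, chr11:57741816-57741818, plus strand: cattgcactagcTGAcgcgtctatgggcgc
MSRB1, chr16:1940812-1940814, minus strand: cagtcccgattcTGAatattcagcagctcg
DIO2, the first of its 2, chr14:80203112-80203114, minus strand: ggctcagccactTGAcctcctttcacgagc

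Each of the 10 codons lies in a coding exon. In SELENOK it is codon 92 of 94 and in SELENOS codon 188 of 189, so these windows run to the last coding codon, whereas in SELENOW it is codon 13 of 87. SELENOP holds the other 9 of its TGA codons between codons 300 and 378 of 381, all in exon 5 of 5. No exon junction follows the codon in SEPHS2, a gene with 1 exon, or in DIO2, where it lies in exon 2 of 2.

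Poly-A RNA was counted at 19336073 to 32325981 reads per library. AF library 1 stood apart: ribosomal RNA entries took 34.8% of its reads and 0.747% to 0.968% of those of each other library, and its TMM factor (the scaling of its library size) was 0.679, against 1.04 to 1.08. Levels are given as CPM, counts scaled to the TMM-adjusted library size. All 10 macrophage markers listed were detected, CD68 with 3 to 109 counts; their summed level was 4385 to 4768 CPM in AF libraries and 4974 to 5695 CPM in DMSO libraries, without overlap. Most of that gap was LYZ, at 745 ± 66.4 CPM in AF libraries and 1434 ± 143 CPM in DMSO libraries (SD, n = 4 each): the other 9 markers summed to 3571 to 3984 CPM in AF libraries and 3637 to 4101 CPM in DMSO libraries, a sum added after seeing the data. In that list ITGAM (log2 fold change 0.43, edgeR adjusted p = 0.000819) and CD14 (0.33, 0.0313) rose, and LYZ (-0.95, 9.9e-06) and MSR1 (-0.73, 0.00100) fell. The CD14 call was lost without AF library 1, 2 or 3 or DMSO library 1, 3 or 4 (edgeR adjusted p = 0.0516 to 0.0929). The part of these marker changes in the results that follow was not tested. Of 8 markers of other cell types, MS4A1 and EPCAM had 0 counts, CD3E 0 to 1 and ALB 1 to 6. The other 4 passed the filter on low counts with 0 called (smallest p NKG7, log2 fold change -0.26 ± 0.11, edgeR adjusted p = 0.105). This list summed to 311 to 342 CPM in AF libraries and 330 to 345 CPM in DMSO libraries. Nearly all of that sum was PECAM1, at 296 to 323 CPM in AF libraries and 311 to 321 CPM in DMSO libraries. The sum therefore says little of the other markers. In bulk RNA, fewer cells making a message and less of it per cell cannot be told apart.

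All 10 genes passed the filter on low counts. With auranofin 2 of them rose (SEPHS2 and SELENOK), 4 fell (SELENOP, DIO2, SELENOH and SELENOW) and 4 did not pass the test (SELENOS, SELENOF, SELENOT and MSRB1), at an adjusted p under 0.05 in edgeR's quasi-likelihood test over 17535 genes. Over all genes tested, 15.4% were called, 7.62% higher and 7.81% lower. The median log2 fold change of the 10 genes was -0.003, against 0.01 over all genes, and the median size of the change was 0.24, against 0.17 over all genes. The 2 largest changes belonged to the 2 least abundant messages, SELENOP and DIO2, at 0.465 and 0.541 of the DMSO level in AF libraries. With library totals in place of TMM, which move the median of all genes to -0.14 and the calls to 183 higher and 700 lower (1336 and 1369 with TMM), DIO2 and SELENOP were still called and SEPHS2 (log2 fold change 0.18, edgeR adjusted p = 0.681), SELENOK (0.03, 0.959), SELENOH (-0.45, 0.123) and SELENOW (-0.43, 0.168) were not; with ribosomal RNA entries removed as well, a setting chosen after seeing the data, SELENOK alone of the 6 was not (0.16, 0.0966). In 2 sets of 2 libraries a group, which the counts and not the labels set apart, the share of all genes called was 1.20% in libraries 1 and 4 and 29.7% in libraries 2 and 3, so the calls of the 10 genes there (0 and the same 6) say little of them. The log2 fold changes of the 6 called genes kept their direction in both sets. The sets together are the libraries already fitted, so this is no independent check. In libraries 1 and 4, and in libraries 2 and 3, those of SELENOP were -1.30 and -0.92, and of DIO2 -0.79 and -0.98. In the same order SEPHS2 had 0.27 and 0.37, SELENOH -0.25 and -0.36, SELENOW -0.30 and -0.28 and SELENOK 0.16 and 0.22.

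**Figure D1:**
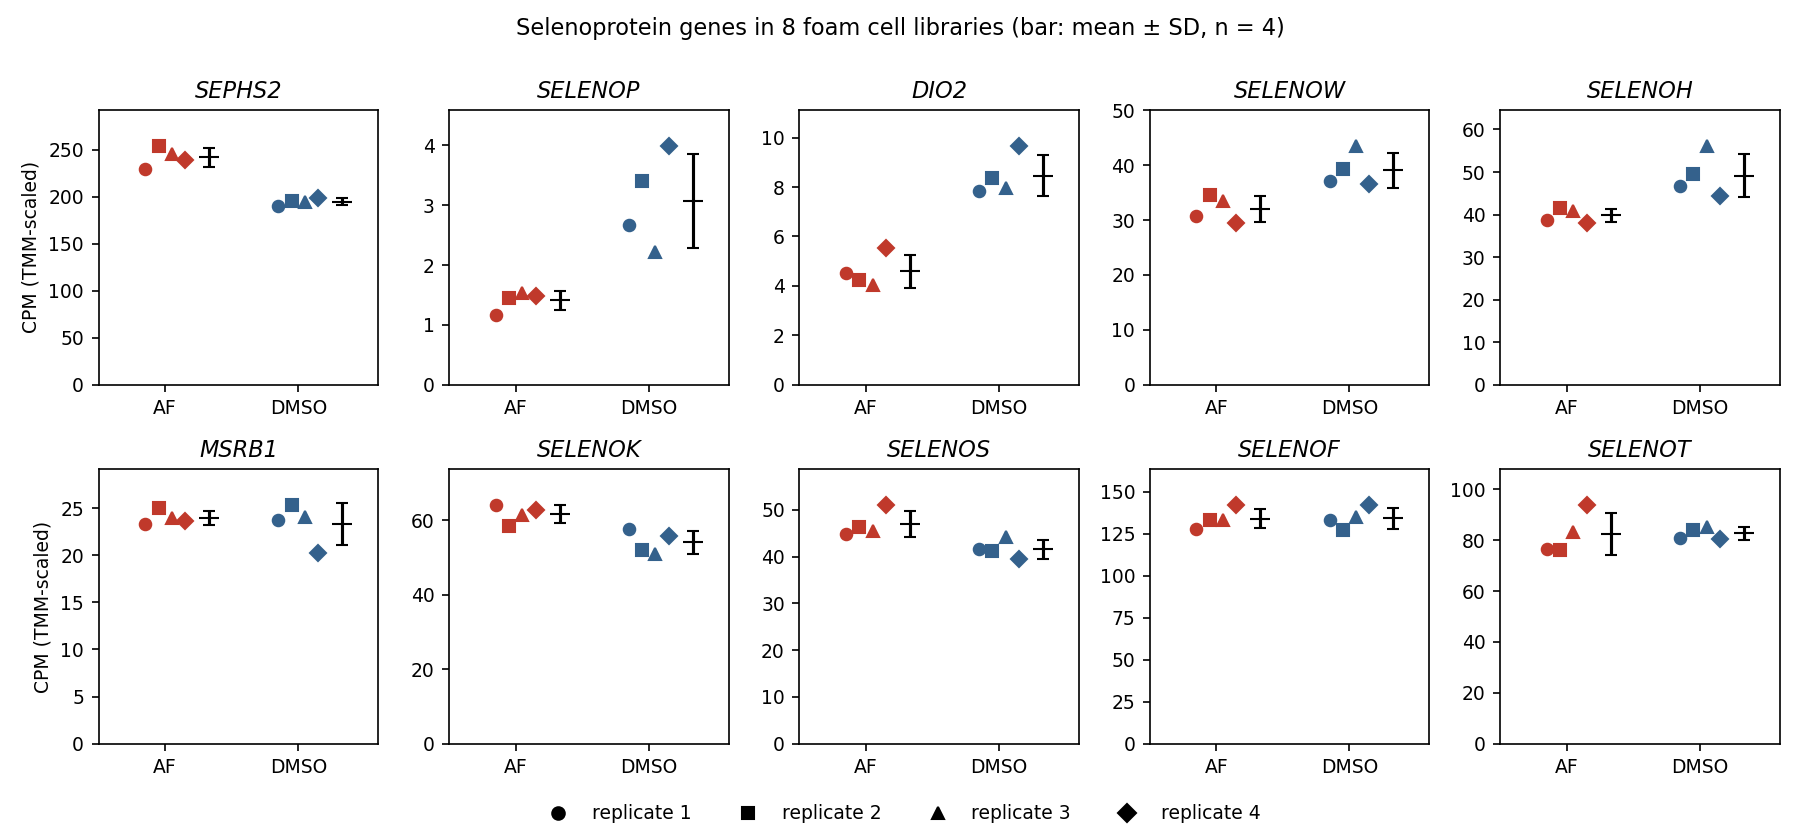
TMM-scaled CPM (y axis, from 0) of each of the 10 genes in AF libraries (red) and DMSO libraries (blue), with a marker shape per replicate number and the mean ± SD (n = 4) as a black bar. The DIO2 points lie between 4.03 and 5.54 CPM in AF libraries and between 7.83 and 9.66 CPM in DMSO libraries, while the SELENOF and SELENOT points of the groups overlap.

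SEPHS2 makes selenophosphate, the selenium donor for selenocysteine, and is itself a selenoprotein. It had 230, 254, 246 and 239 CPM in AF libraries 1 to 4, against 190, 195, 194 and 199 CPM in DMSO libraries 1 to 4. The lowest AF library stood above the highest DMSO library. Its mean was 242 ± 10.5 CPM in AF libraries and 194 ± 4.00 CPM in DMSO libraries (SD, n = 4 each), a log2 fold change of 0.32 ± 0.05 (SE; 95% interval 0.20 to 0.43; edgeR adjusted p = 0.00115), or 1.25-fold. The call held whichever library was left out, with log2 fold changes of 0.30 to 0.34. The gene gave the most counts of the 10 in every library.

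SELENOP is the secreted protein that carries selenium between tissues, made mostly by the liver, and its several selenocysteines are its cargo. It had 1.17, 1.45, 1.53 and 1.48 CPM in AF libraries 1 to 4, from 22, 49, 47 and 38 counts. In DMSO libraries 1 to 4 it had 2.67, 3.41, 2.21 and 3.99 CPM, from 78, 88, 52 and 83 counts. Every AF library stood below every DMSO library, and the DMSO libraries were the more scattered. The mean was 1.41 ± 0.163 CPM in AF libraries and 3.07 ± 0.786 CPM in DMSO libraries (SD, n = 4 each), a log2 fold change of -1.10 ± 0.21 (95% interval -1.54 to -0.67; edgeR adjusted p = 0.00237). The coefficient of variation was 11.6% in AF libraries, where counting alone would give 16.0%, and 25.6% in DMSO libraries, where it would give 11.5%. With 22 to 88 counts per library, its level rests on few reads. CCDC152, which overlaps 25.5% of the SELENOP exon bases on the opposite strand, had 0 to 2 counts. AC008945.1 overlaps 10.6% of them, also on the opposite strand, and its part in the SELENOP counts was not tested.

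DIO2 encodes the type 2 deiodinase, which turns the thyroid prohormone thyroxine into its active form inside cells. It had 4.51, 4.24, 4.03 and 5.54 CPM in AF libraries 1 to 4, against 7.83, 8.38, 7.96 and 9.66 CPM in DMSO libraries 1 to 4. The groups did not overlap: the highest AF library stayed below the lowest DMSO library. Means were 4.58 ± 0.667 CPM in AF libraries and 8.46 ± 0.833 CPM in DMSO libraries (SD, n = 4 each), and the message fell by 0.89 ± 0.13 on the log2 scale (95% interval -1.16 to -0.61; edgeR adjusted p = 0.000336). It rested on 85 to 229 counts per library, and 574 of the 17535 genes tested changed by more. The calls of DIO2 and SELENOP held whichever library was left out, with log2 fold changes of -0.99 to -0.82 for DIO2 and -1.23 to -0.96 for SELENOP.

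SELENOH and SELENOW are small proteins of a thioredoxin-like fold, SELENOH in the nucleolus and SELENOW in the cytosol, SELENOW best known from muscle. SELENOH had 38.7, 41.5, 40.8 and 38.1 CPM in AF libraries 1 to 4, against 46.7, 49.6, 56.1 and 44.3 CPM in DMSO libraries 1 to 4. SELENOW had 30.8, 34.6, 33.5 and 29.4 CPM in AF libraries 1 to 4, against 37.1, 39.3, 43.5 and 36.5 CPM in DMSO libraries 1 to 4. Neither gene's groups overlapped, and DMSO library 3 was the highest for both. AP001931.1 overlaps 8.98% of the SELENOH exon bases on the same strand, and its part in the SELENOH counts was not tested. SELENOH averaged 39.8 ± 1.65 CPM in AF libraries and 49.2 ± 5.07 CPM in DMSO libraries (SD, n = 4 each), a fall by 0.30 ± 0.08 on the log2 scale (95% interval -0.47 to -0.14; edgeR adjusted p = 0.0150). SELENOW averaged 32.1 ± 2.40 CPM in AF libraries and 39.1 ± 3.17 CPM in DMSO libraries (SD, n = 4 each), a fall by 0.28 ± 0.09 (95% interval -0.47 to -0.10; edgeR adjusted p = 0.0396). The SELENOH call was lost without DMSO library 2 (edgeR adjusted p = 0.0624) or DMSO library 3 (0.0970). The SELENOW call was lost without AF library 1, 3 or 4 (edgeR adjusted p = 0.0546, 0.0770 and 0.0716) or DMSO library 1, 2 or 3 (0.0644, 0.104 and 0.161).

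In the ER membrane sit SELENOK and SELENOS, which take part in the removal of misfolded proteins; SELENOK also works with the palmitoyltransferase ZDHHC6 and, in mice, in the calcium flux of immune cells. SELENOK had 64.1, 58.4, 61.4 and 62.8 CPM in AF libraries 1 to 4, against 57.7, 52.0, 51.0 and 55.8 CPM in DMSO libraries 1 to 4. SELENOS had 44.8, 46.3, 45.5 and 51.0 CPM in AF libraries 1 to 4, against 41.6, 41.1, 44.3 and 39.4 CPM in DMSO libraries 1 to 4. For both genes the AF libraries were all above the DMSO libraries, by a narrow margin. SELENOK averaged 61.7 ± 2.47 CPM in AF libraries and 54.1 ± 3.15 CPM in DMSO libraries (SD, n = 4 each), a log2 fold change of 0.19 ± 0.06 (95% interval 0.06 to 0.32; edgeR adjusted p = 0.0465). SELENOS averaged 46.9 ± 2.77 CPM in AF libraries and 41.6 ± 2.00 CPM in DMSO libraries (SD, n = 4 each), and its log2 fold change of 0.17 ± 0.07 did not pass (95% interval 0.03 to 0.32; edgeR adjusted p = 0.0977). The SELENOK call was near the threshold: it held without DMSO library 1 (edgeR adjusted p = 0.0447) and was lost without any one of the other 7 libraries (0.0501 to 0.155).

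SELENOF, a partner of the glycoprotein folding sensor UGGT1 in the ER lumen, and SELENOT, an ER membrane protein of the same fold as SELENOW, did not pass the test. SELENOF had 128, 133, 133 and 142 CPM in AF libraries 1 to 4 and 133, 127, 135 and 142 CPM in DMSO libraries 1 to 4. Its log2 fold change was -0.002 ± 0.05, with a 95% interval of -0.12 to 0.11 (edgeR adjusted p = 0.983). SELENOT had 76.7, 76.3, 83.3 and 93.8 CPM in AF libraries 1 to 4 and 81.0, 84.1, 85.3 and 80.3 CPM in DMSO libraries 1 to 4. Its AF libraries lay on both sides of the DMSO libraries, with AF library 4 the highest, and its log2 fold change was -0.003 ± 0.07 (95% interval -0.14 to 0.14; edgeR adjusted p = 0.985). A processed pseudogene, SELENOTP1, had 105 to 221 counts against 1445 to 2573 for SELENOT, so the split of reads between the pair is uncertain.

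MSRB1 reduces the R form of oxidised methionine, and in mouse macrophages it is known to act on actin. It had 23.3, 25.0, 23.9 and 23.6 CPM in AF libraries 1 to 4 and 23.7, 25.3, 24.0 and 20.2 CPM in DMSO libraries 1 to 4. The groups overlapped, and DMSO library 4 was the lowest. The log2 fold change was 0.04 ± 0.10, with a 95% interval of -0.16 to 0.24 (edgeR adjusted p = 0.818).

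**Figure D2:**
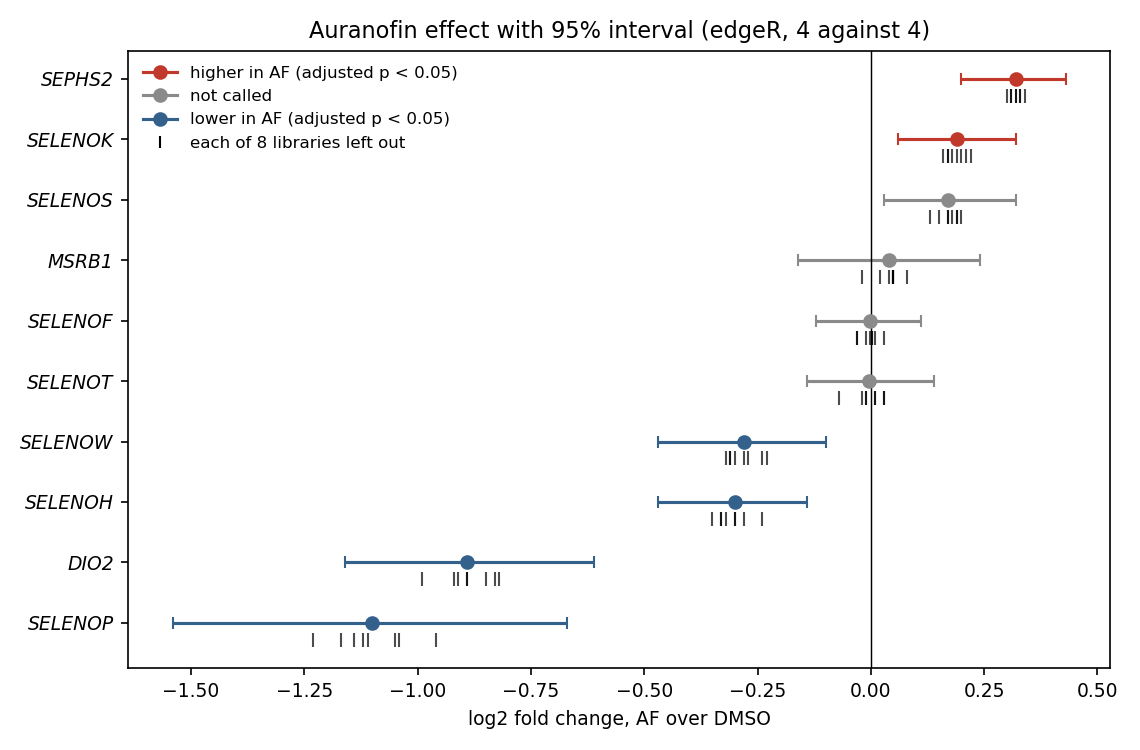
Log2 fold change (x axis, AF over DMSO) of each gene from edgeR with its 95% interval, coloured by call, and black ticks for the 8 values obtained with 1 library left out. SELENOP (-1.10) and DIO2 (-0.89) lie apart from the others, which run from -0.30 for SELENOH to 0.32 for SEPHS2.

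By CPM alone, 3 of the 10 genes stood higher in AF libraries with no overlap between groups, 4 stood lower and 3 overlapped; over all genes tested 19.5% did not overlap in either direction. The 10 genes together summed to 642, 675, 673 and 687 CPM in AF libraries 1 to 4, against 621, 624, 643 and 632 CPM in DMSO libraries 1 to 4. Those sums nearly met, and without SEPHS2 they overlapped, at 413 to 448 CPM in AF libraries and 430 to 449 CPM in DMSO libraries.

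Each gene's share of the counts of the 10 does not depend on how libraries are scaled; this measure was chosen after seeing the data. SEPHS2 made up 36.2 ± 1.22% of them in AF libraries (34.8% to 37.7%) and 30.8 ± 0.644% in DMSO libraries (30.1% to 31.6%). DIO2 made up 0.599% to 0.806% in AF libraries and 1.24% to 1.53% in DMSO libraries, and SELENOP 0.182% to 0.227% in AF libraries and 0.344% to 0.631% in DMSO libraries. SELENOH took 5.54% to 6.16% in AF libraries and 7.02% to 8.72% in DMSO libraries, and SELENOW 4.29% to 5.13% in AF libraries and 5.78% to 6.77% in DMSO libraries. The groups did not overlap for these 5 genes and overlapped for the other 5, among them SELENOK at 8.65% to 9.98% in AF libraries and 7.94% to 9.29% in DMSO libraries. The shares of a library add up to the whole, so a larger share of SEPHS2 lowers those of the others: SELENOF took 20.0 ± 0.456% in AF libraries and 21.3 ± 0.935% in DMSO libraries with a mean of 134 CPM in each. No like share can be had over all genes, so these overlaps have no background to be read against.

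**Figure D3:**
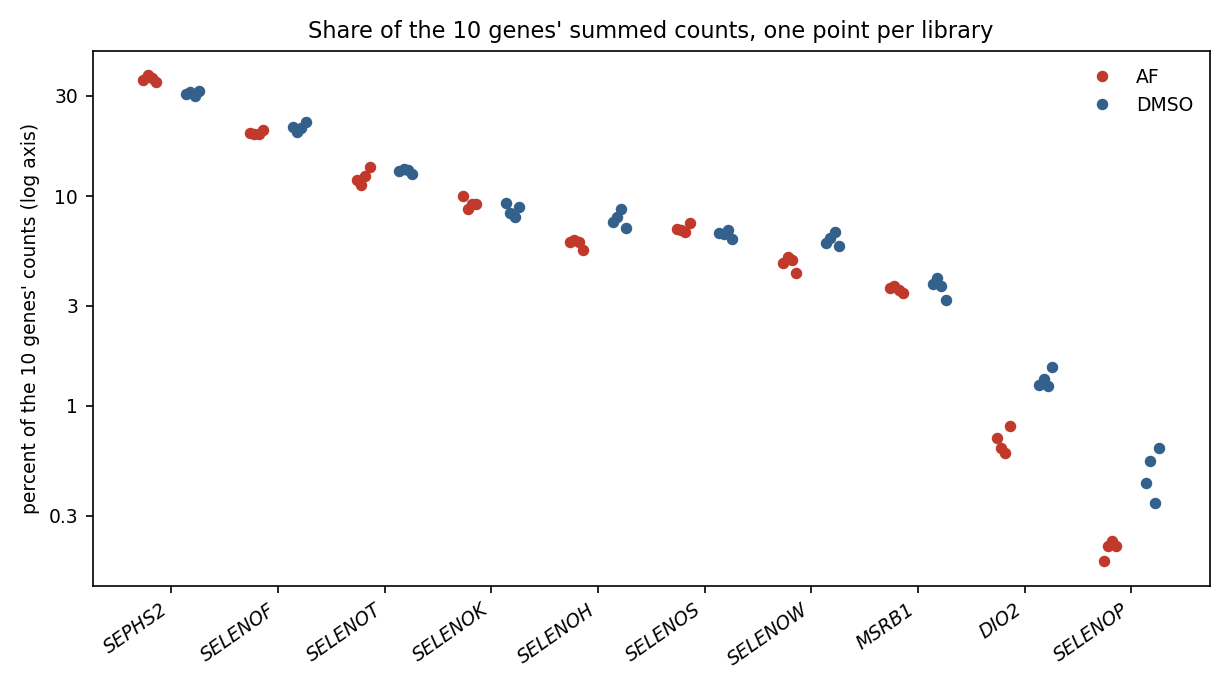
Percent of the 10 genes' summed counts taken by each gene (y axis, log scale), with 1 point per library, AF in red to the left of DMSO in blue. SEPHS2 stands higher in all 4 AF libraries; SELENOH, SELENOW, DIO2 and SELENOP stand lower in all 4.

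Levels of different genes were compared per kilobase of exon. In DMSO libraries the order was SEPHS2 (76.1 ± 1.57 CPM per kilobase; SD, n = 4), SELENOF (61.0 ± 2.91), SELENOK (25.0 ± 1.45), SELENOH (21.3 ± 2.20), SELENOT (20.0 ± 0.582), SELENOS (11.0 ± 0.531), MSRB1 (10.8 ± 1.01), SELENOW (7.43 ± 0.602), DIO2 (1.13 ± 0.111) and SELENOP (0.540 ± 0.138). SELENOK and SELENOH, SELENOH and SELENOT, and SELENOS and MSRB1 overlapped as neighbours in this order, and the other neighbours did not. The order depends on the length used: with the longest transcript as length SELENOW stood at 15.6 ± 1.26, SELENOH at 33.8 ± 3.49 and SELENOS at 17.0 ± 0.819 CPM per kilobase in DMSO libraries, and SEPHS2 and SELENOF, SELENOH and SELENOK, SELENOS and MSRB1, and MSRB1 and SELENOW were then the neighbours that overlapped. In AF libraries the mean levels per kilobase of SELENOH (17.3 ± 0.718) and SELENOT (20.0 ± 1.98) stood the other way round.

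The genes also differ in where the TGA lies. The distance from the end of the first TGA to the last exon junction was 136 bases in SELENOH, 243 in SELENOW and 357 in SELENOP, all of which fell. It was 470 bases in SELENOT, 78 in SELENOF, 34 in MSRB1 and 13 in SELENOS, none of which was called, and 5 in SELENOK, which rose. SEPHS2, with no junction, rose, and DIO2, with none after its TGA, fell. The distances were taken on a single annotated transcript per gene, and the isoforms expressed in these cells were not examined. They describe 10 genes and were not tested.

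A set of 4 messages that are known to fall in selenium-deficient rodents was listed: GPX1, SELENOW, SELENOH and MSRB1, of which 3 belong to the 10 genes. With auranofin 3 of the 4 fell and 0 rose, with a median log2 fold change of -0.29, where 7.81% of all genes were called lower; MSRB1 did not pass the test. Of the 4, 1 was called lower without DMSO library 2 or DMSO library 3, and 0 with library totals in place of TMM. The SELENOW call was also lost without AF library 1, 3 or 4 or DMSO library 1. The list was chosen with results of these data known. GPX1, cytosolic glutathione peroxidase, averaged 292 ± 23.5 CPM in AF libraries and 385 ± 50.8 CPM in DMSO libraries (SD, n = 4 each) and fell by 0.40 ± 0.09 on the log2 scale (edgeR adjusted p = 0.00779).

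Of the 7 other selenoproteins of the same kind, 5 were tested, 0 rose and 1 fell, with a median log2 fold change of -0.10. The share called over all genes tested was 15.4%. SELENOV and DIO3 had 0 counts in every library. The gene that fell was SELENON, an ER protein whose loss causes a congenital myopathy, at 128 ± 9.65 CPM in AF libraries and 155 ± 4.73 CPM in DMSO libraries (SD, n = 4 each; log2 fold change -0.27 ± 0.06, edgeR adjusted p = 0.00677). Of the 8 thioredoxin reductases and glutathione peroxidases, 6 were tested, 1 rose and 1 fell (GPX1), with a median of 0.12. TXNRD1, cytosolic thioredoxin reductase, averaged 297 ± 22.3 CPM in AF libraries and 225 ± 7.44 CPM in DMSO libraries (SD, n = 4 each) and rose by 0.40 ± 0.06 (edgeR adjusted p = 0.000771). GPX4, which reduces lipid peroxides, had a log2 fold change of 0.22 ± 0.08 that did not pass (edgeR adjusted p = 0.0912; it passed without AF library 4, at 0.0128).

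Among 12 genes listed around selenocysteine synthesis and insertion, not all of which make or insert it, 1 rose and 2 fell. Their median log2 fold change was 0.02. The share called over all genes tested was 15.4%. SARS1, which charges the selenocysteine transfer RNA with serine, rose by 0.19 ± 0.05 (edgeR adjusted p = 0.0270). SCLY, which releases selenium from selenocysteine, averaged 9.24 ± 0.688 CPM in AF libraries and 12.3 ± 0.937 CPM in DMSO libraries (SD, n = 4 each) and fell by 0.41 ± 0.09 (edgeR adjusted p = 0.00800). EIF4A3, an exon junction protein that binds some SECIS elements, fell by 0.18 ± 0.05 (edgeR adjusted p = 0.0358). The SCLY call held without any one library. The SARS1 call was lost without AF library 1, 2 or 3 or DMSO library 2, 3 or 4 (edgeR adjusted p = 0.0550 to 0.0843), and the EIF4A3 call without AF or DMSO library 1, 2 or 3 (0.0739 to 0.127).

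**Figure D4:**
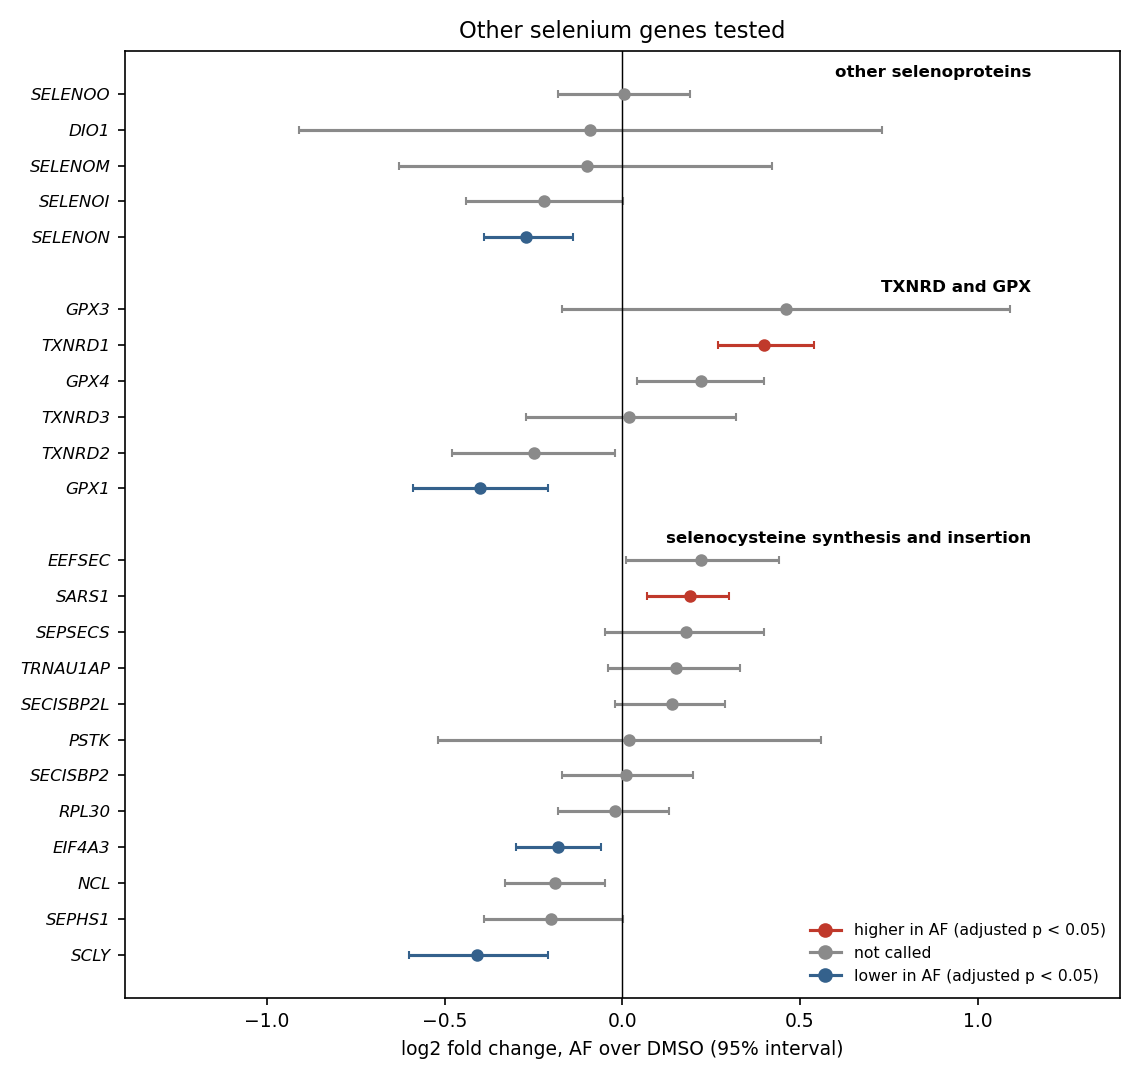
Log2 fold change (x axis, AF over DMSO) with its 95% interval from edgeR for the 23 other selenium genes tested, in 3 groups, coloured by call. TXNRD1 and SARS1 lie to the right of 0 and SELENON, GPX1, SCLY and EIF4A3 to the left among those called.

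With library totals in place of TMM, 0 genes of the selenium lists or of the lists of partner genes were called. Genes that work with the individual selenoproteins were described in the same way. Of 3 receptors that can take up SELENOP or related cargo, 2 were tested and 0 passed; the smallest p belonged to LRP1 (log2 fold change -0.22 ± 0.08, edgeR adjusted p = 0.0893, and 0.00346 without AF library 1). For the lists that follow, the share called over all genes tested was 15.4%. Among 12 genes of ER-associated degradation around SELENOS and SELENOK, 1 rose and 1 fell, with a median of 0.03. HERPUD1, an ER stress-inducible membrane protein of this pathway, rose by 0.58 ± 0.10 (edgeR adjusted p = 0.00102), and the derlin DERL3 fell by 0.37 ± 0.12 (edgeR adjusted p = 0.0465), a call that held only without DMSO library 4 (0.0717 to 0.161 without any one of the others). Of 7 glycoprotein folding genes around SELENOF, 1 rose and 0 fell, with a median of 0.16. That gene was CALR, the chaperone calreticulin, with a log2 fold change of 0.25 ± 0.07 (edgeR adjusted p = 0.0345), and its call was lost without AF library 2 or 3 or any one DMSO library (0.0727 to 0.103).

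Of the other 3 methionine sulfoxide reductases, 0 rose and 1 fell, with a median log2 fold change of -0.05. The share called over all genes tested was 15.4%. MSRA, which reduces the S form of oxidised methionine that MSRB1 does not act on, averaged 16.5 ± 1.78 CPM in AF libraries and 21.0 ± 1.19 CPM in DMSO libraries (SD, n = 4 each) and fell by 0.34 ± 0.10 (edgeR adjusted p = 0.0292). Its call was lost without AF library 2 or 3 or DMSO library 2 (edgeR adjusted p = 0.0630 to 0.0951).

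The 250 bases before the start of each gene were searched for motifs on both strands, in RefSeq promoters of GRCh38.p14 (12 windows for the 10 genes, 35116 windows in all). The core of the antioxidant response element, TGACNNNGC, was in 2 of the 12, against 10.9% of all windows. The windows with it belong to SELENOK, which rose, and SELENOP, which fell, and 29 bases around each match are shown with the core in capitals.
SELENOK, chr3:53891958-53891986, minus strand: gtcgcagatgTGACGATGCaaaaacgccc
SELENOP, chr5:42811973-42812001, minus strand, core on the other strand: tgctctgcttGCAAGGTCActgcaagaat
The metal response element core (TGCACNC or TGCGCNC) was in 1 of the 12 windows, that of SELENOT, against 24.8% of all. The ATF4 composite element TGATGCAA was in 0, against 0.772% of all, and the ER stress response elements (ERSE and ERSE-II) were in 0, against 0.074% and 0.0513% of all. The CCAAT box, which is also the first part of the longer ER stress element, was in 6 of the 12 windows, against 32% of all. These matches are letters in a window and say nothing of binding.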

How the data were processed

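Gene counts of 8 poly-A libraries were analysed as deposited by the authors, whole numbers with no normalisation. Libraries were stranded and made from 250 ng of total RNA, per the labels' protocols. The submitters' processing notes name the GRCh38 build, featureCounts (Subread 1.6.3 is also named) and STAR 2.6.1d. How strand and multiply mapped reads were counted, and with which annotation, is not given in the sources used here. Values of overlapping genes and pseudogenes are therefore uncertain.

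Counts were fitted with edgeR 4.0.16 in R 4.3.3: TMM, filterByExpr defaults, glmQLFit and glmQLFTest on all 8 libraries with no covariate, two-sided, Benjamini-Hochberg adjustment over 17535 genes, threshold 0.05, 6 residual degrees of freedom. The standard error is the size of the log2 fold change over the root of F. CPM, shares and levels per kilobase of exon (GENCODE 29) were computed from the same counts. Depth was 19336073 to 32325981 counts per library, and with no molecular identifiers described, counts are not independent molecules.

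No pair of libraries agreed within sampling noise (lowest chi-square per degree of freedom 2.78, limit 1.1), so each entered singly. The 10 genes and the other lists were chosen with earlier results of these data known. Named from each list were the called genes, at most 3 in each direction by smallest p, or the gene with the smallest p where none was called; TXNRD1, GPX1 and GPX4 were named whatever their result. A list and a gene taken by this rule are not reported here. Alternatives were DESeq2 1.42.0, other scalings and filters, a replicate block, summed libraries, libraries left out and other exon lengths.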

Additional observations from a re-analysis of the deposited data

How the results depend on the processing

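Across the 10 genes and the alternatives tried, 154 log2 fold changes kept their direction and their side of the threshold, 31 kept the direction and lost the call, and 15 changed sign. The sign changes belonged to the genes with no measured shift: SELENOT (0.002 with no filter on low counts, 0.08 in libraries 1 and 4 alone), SELENOF (0.002 with no filter, 0.02 in libraries 2 and 3 alone) and MSRB1 (-0.10 with library totals alone, -0.01 in libraries 2 and 3 alone). With 1 library left out they ran from -0.07 to 0.03 for SELENOT, -0.03 to 0.03 for SELENOF and -0.02 to 0.08 for MSRB1, and the calls numbered 1 to 2 higher and 2 to 4 lower. With library totals alone, which move the median of all genes to -0.14, 0 of the 10 were called higher and 2 lower (DIO2 and SELENOP). In libraries 1 and 4 of each group alone 0 were called higher and 0 lower, where 1.20% of all genes were called, against 29.7% in libraries 2 and 3 alone; this division was seen in the counts, not the labels. With upper-quartile factors, ribosomal RNA entries removed (also with library totals alone, added later), no filter, at least 10 counts in every library, or libraries of a shared name stem summed, 1 gene was called higher, SEPHS2, and SELENOK was not. Summing libraries of a shared name stem leaves fewer than 4 units a group. SELENOK then had an edgeR adjusted p of 0.0739, and the SARS1, CALR, DERL3 and MSRA calls were lost. In that fit 1 of the 12 genes listed around selenocysteine synthesis and insertion was called lower, and 1 SELENOP uptake receptor was called higher. DESeq2 changed none of the 10 calls. For the other genes that the naming rule takes, 280 values kept direction and side of the threshold, 69 lost the call and 11 gained one. Over all genes, 8.97% to 16.4% were called with 1 library left out and 5.04% with library totals alone, against 15.4%.

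Same-numbered libraries correlated across genes at 0.09, 0.13, 0.03 and 0.19. AF libraries 1, 2 and 4 correlated best with the same-numbered DMSO library, and AF library 3 with DMSO library 2 (0.04, against 0.03). The rule asked for more than 0.1 in every pair, so the numbers were not taken to pair libraries. Whether some libraries were paired is not settled by this. A fit with the replicate block called 23.9% of all genes, against 15.4%, and left all 10 calls as they were (2 higher, 4 lower).

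With the longest transcript as length, levels in DMSO libraries were 73.1 CPM per kilobase for SELENOF, 33.8 for SELENOH, 33.1 for SELENOK, 23.7 for SELENOT, 17.0 for SELENOS, 16.4 for MSRB1, 15.6 for SELENOW, 1.33 for DIO2 and 0.736 for SELENOP, which places SELENOH before SELENOK. Depth limits SELENOP most.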
